A study of Mus musculus with 6 samples.

Results

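Mammalian cells take up most of their leucine, glutamine and arginine through solute carrier proteins and can make serine themselves, and 9 genes that serve these functions were followed here in pre-B cells of Eµ-Myc mice. They were Slc7a5, Slc3a2, Slc7a1, Slc1a5, Slc38a1 and Slc38a2, which encode plasma membrane transporters or a transporter subunit, and Phgdh, Psat1 and Psph, which encode the enzymes of the serine synthesis pathway. They were picked by symbol from the 37991 Ensembl gene IDs counted, and all 9 passed the filter on low counts. The study sequenced polyA RNA of primary pre-B cells sorted from bone marrow at 3 stages, with 2 libraries per stage from individual C57BL/6 animals, to follow the transcriptome from normal to malignant cells.

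The wild type cells came from animals of 4 to 6 weeks without the transgene. The premalignant cells came from E{mu}Myc/+ animals of the same age, heterozygous for a Myc transgene that an immunoglobulin heavy chain enhancer drives in the B lineage, and the malignant cells from E{mu}Myc/+ animals of 10 to 20 weeks that had developed lymphoma. The labels give 1 gate for all stages, high B220 with low IgM and low IgD, whereas the study's methods describe the malignant cells as B220+ IgM- IgD-. The methods also give only female mice for the wild type and premalignant stages and both sexes for the malignant stage. Stage therefore cannot be told apart from age between the malignant cells and the others, nor from these differences in gate and sex. Spontaneous lymphomas are separate clonal expansions, so the malignant libraries are 2 tumors.

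Slc7a5 and Slc3a2 form a heterodimer in which Slc7a5 (LAT1) carries large neutral amino acids such as leucine and Slc3a2 (the CD98 heavy chain) brings the light chain to the membrane. Cytosolic leucine is one of the signals that activate the growth kinase complex mTORC1, and the exchanger gives out intracellular amino acids such as glutamine in return, which Slc1a5, Slc38a1 and Slc38a2 bring in. Serine made from a glycolytic intermediate feeds glycine and one-carbon units into nucleotide synthesis, and proliferating lymphocytes draw on both routes.

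The 3 libraries of replicate 1 held 51065861 to 53453055 counted reads and those of replicate 2 held 30031100 to 34543633. Levels are given in CPM, read counts brought to a common library size by TMM scaling, and a count of 3 corresponded to 0.0526 to 0.108 CPM, far below each of the 9 genes. The Myc level was 33.8 and 41.4 CPM in wild type, 1164 and 1155 in the premalignant and 1732 and 1578 in the malignant, so it was high where the labels place the transgene. The B-lineage genes Cd79a and Cd79b were at 616 to 1480 CPM in each library. Vpreb1, a surrogate light chain gene, was at 115 and 131 CPM in wild type, 9.74 and 4.88 in premalignant and 0.146 and 4.05 in malignant cells. Over 12 B-lineage genes the summed level was 8678 and 9427 CPM in wild type, 4835 and 4876 in premalignant and 4511 and 5178 in malignant cells, and 10 were called lower in both Myc stages than in wild type. Vpreb2 had 0 counts in malignant replicate 1, which allows up to 0.0628 CPM. Markers of other cells were highest in wild type: the summed level of 13 neutrophil and monocyte genes was 1252 and 2831 CPM in wild type, 390 and 412 in premalignant and 95.5 and 179 in malignant cells, and all 13 were called lower in malignant than wild type cells. Sums for 8 erythroid genes were 345 and 1353, 83.8 and 186, and 68.6 and 80.2 CPM in the same order, with 6 called lower, and sums for 5 natural killer cell genes were 203 and 62.9, 10.2 and 3.10, and 3.58 and 4.62, with all 5 called lower. Of 9 T cell genes, summed at 15.6 to 153 CPM, and 5 plasma cell genes, summed at 264 to 768 CPM, 5 and 3 were called lower, and none of these markers was called higher in any comparison. The T cell marker Cd3e had 0 counts in premalignant replicate 2. The part of these cells in the results that follow was not tested.

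Transcripts of 6 of the 9 genes were higher in premalignant than wild type cells, 3 were higher still in malignant than premalignant cells, and 1, Slc1a5, was lower in malignant than wild type cells (the plots of each library and of the fold changes). Slc7a5 and Slc7a1 rose most, 4.09-fold and 4.37-fold from wild type to premalignant cells, whereas the fitted means of Slc38a1 and Slc38a2 lay within 1.15-fold of wild type. A gene is called here when edgeR's quasi-likelihood test gave an adjusted p (Benjamini-Hochberg, over the 16683 genes tested) of at most 0.1 and the log2 fold change was at least 0.5 in size. Between wild type and premalignant cells 6 of the 9 genes were called higher and 0 lower, against 19% and 20.3% of all genes tested. Between premalignant and malignant cells 3 were called higher and 0 lower, against 3.73% and 2.45% of all genes. Between wild type and malignant cells 6 were called higher and 1 lower, against 24.9% and 24.3% of all genes. The median log2 fold change of the 9 genes was 0.93, 0.30 and 1.50 in these comparisons, beside -0.08, 0.04 and -0.02 over all genes tested.

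**Figure D1:**
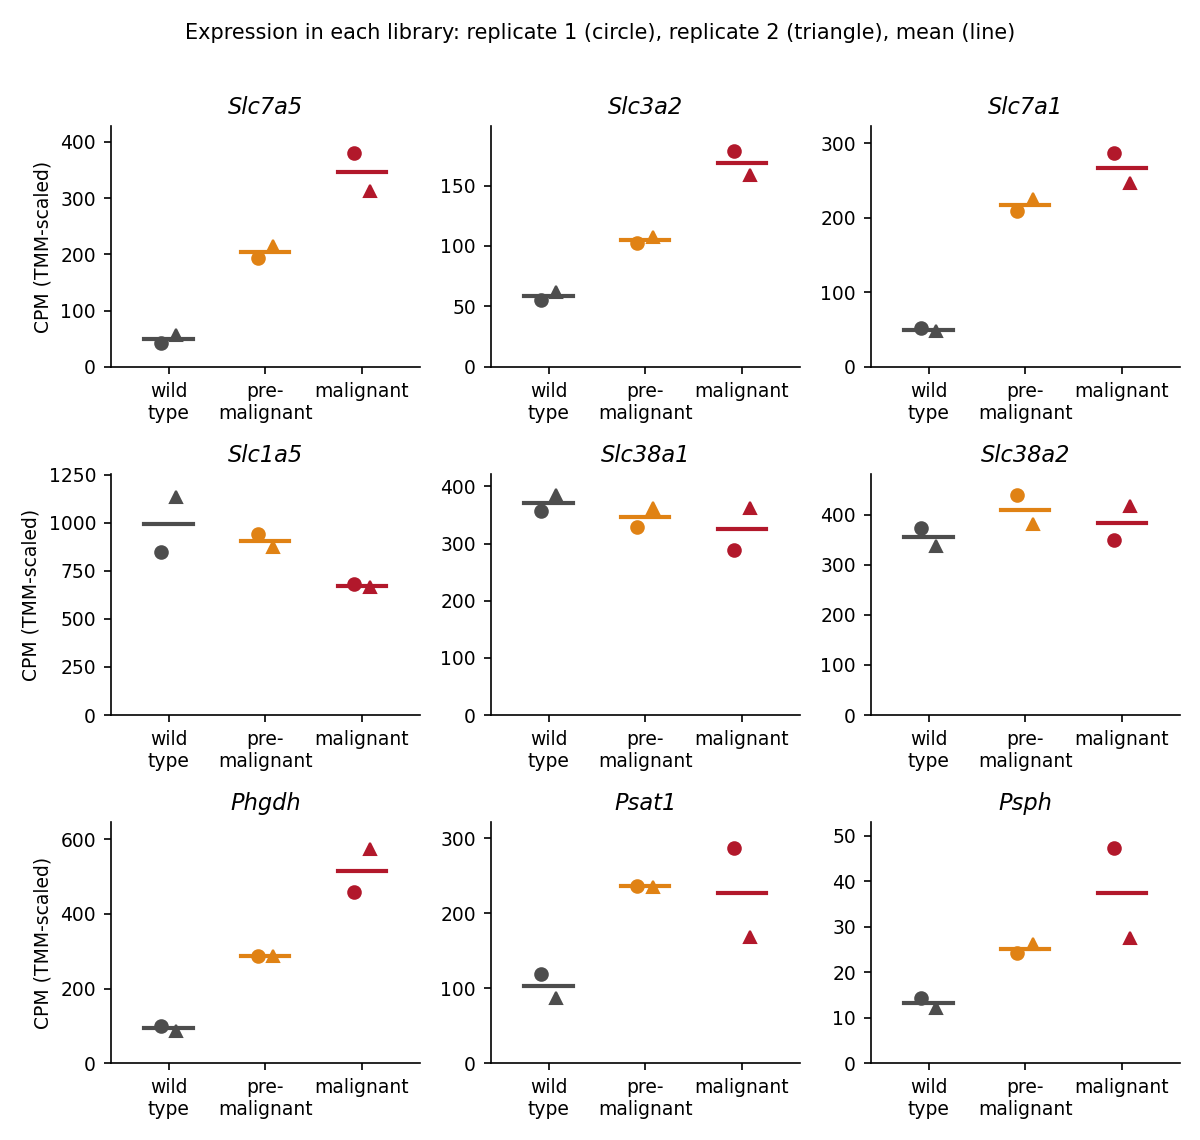
Expression of the 9 genes in each of the 6 libraries, in CPM scaled by TMM (a separate linear axis from 0 for each gene), with replicate 1 as a circle, replicate 2 as a triangle and the mean of the stage as a line. Slc7a5 climbs from 43.2 and 56.9 CPM in wild type to 380 and 313 in malignant cells, while Slc38a1 and Slc38a2 lie between 289 and 440 CPM throughout.

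With 2 libraries a stage, the calls between premalignant and malignant cells hung on the libraries fitted, among the 9 genes and over all genes. Of all genes, 1031 were called with all libraries, 258 when only these 2 stages were fitted and 2113 by DESeq2. Calls over all genes also fell without either wild type library and were lost without either premalignant one, so such losses do not set the 9 genes apart. None of the 9 genes was called in that comparison (0 of 9) when wild type replicate 1 or 2 or premalignant replicate 1 or 2 was left out, or when only these 2 stages were fitted, while 4 were called without malignant replicate 2 and DESeq2 with all libraries called 3. The comparisons with wild type moved less, and 4 to 6 of the 9 genes were called in premalignant cells and 5 to 7 in malignant cells when 1 library was left out. Without wild type replicate 2, the library with the most neutrophil and erythroid transcripts, the counts were 4 and 5, and the first was also 4 without premalignant replicate 1 or 2. Calls over all genes in premalignant against wild type cells fell in the same fits. The log2 fold changes from wild type to premalignant that were no longer called without wild type replicate 2 were 0.99 for Psat1 and 0.82 for Psph, beside 1.20 and 0.93 with all libraries. Within replicate number 1 the log2 difference between premalignant and wild type cells was 0.76 to 2.17 for the 6 rising genes, and within number 2 it was 0.80 to 2.24. CPM values are shares of a library, so fewer cells of a type and less RNA per cell cannot be told apart. Scaling by total counts alone shifted the log2 change of the median gene against TMM by -0.21, -0.09 and -0.29 in the 3 comparisons and the split of all calls from 3169 higher and 3394 lower to 2247 and 4438 (premalignant against wild type) and from 4153 and 4059 to 2957 and 5367 (malignant against wild type), and the 6 rising genes were still called higher than wild type.

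**Figure D2:**
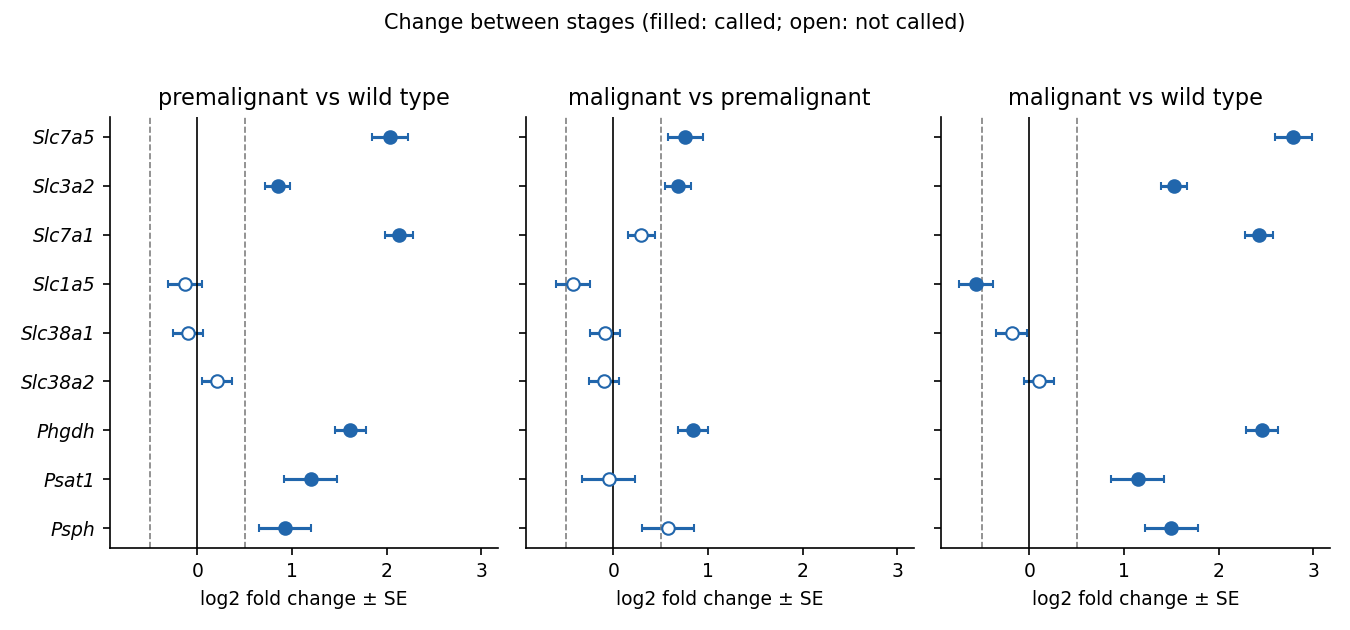
Log2 fold change with its standard error (edgeR, 2 libraries per stage) of each gene in the 3 comparisons, with filled points for called genes and dashed lines at the fold change limit of 0.5. The 6 filled points at the left lie between 0.85 and 2.13, and the glutamine carriers Slc1a5, Slc38a1 and Slc38a2 lie near or below 0 in each panel.

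Because 6 of the genes rose together, their start sites were searched for known promoter elements. Windows from 250 bases before to 50 bases after a RefSeq start (GRCm38.p6) were at hand for 6 of the 9 genes, 8 windows in all, and Slc7a5, Slc1a5 and Slc38a1 had no entry. The E-box CACGTG, which MYC binds, was in 0 of the 8 windows and in 7.15% of all 32851 windows, read on both strands. The element TGATGNAA, bound by ATF4 with a C/EBP partner under amino acid shortage, was likewise in 0 of the 8 and in 3.97% of all windows. At shares this low, 0 of 8 windows is a common outcome, so neither count sets these genes apart from others. The CCAAT box, looked for after the sequences had been seen, was in 4 of the 8 windows, 1 each of Slc7a1, Phgdh, Psat1 and Psph, against 37.4% of all windows. With so few windows this count is not far from that share, so it is no result about these genes. The box was in neither the Slc3a2 nor the Slc38a2 window, and Slc3a2 was among the rising genes. The stretches from 110 bases before to 9 bases after the first transcribed base are given below for a rising carrier, the 3 serine enzymes, the exchanger subunit Slc3a2 and the carrier Slc38a2 that was called in no comparison, with CCAAT or its reverse complement ATTGG in capitals.
Slc7a1: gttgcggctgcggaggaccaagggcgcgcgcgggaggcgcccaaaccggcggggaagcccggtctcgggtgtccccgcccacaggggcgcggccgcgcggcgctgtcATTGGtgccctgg
Phgdh: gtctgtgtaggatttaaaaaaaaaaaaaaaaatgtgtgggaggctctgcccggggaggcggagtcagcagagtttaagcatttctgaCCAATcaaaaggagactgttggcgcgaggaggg
Psat1: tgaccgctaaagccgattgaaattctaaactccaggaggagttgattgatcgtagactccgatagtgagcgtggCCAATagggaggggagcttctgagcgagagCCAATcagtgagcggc
Psph: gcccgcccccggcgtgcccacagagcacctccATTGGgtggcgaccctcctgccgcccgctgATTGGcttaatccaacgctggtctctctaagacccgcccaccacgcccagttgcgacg
Slc3a2: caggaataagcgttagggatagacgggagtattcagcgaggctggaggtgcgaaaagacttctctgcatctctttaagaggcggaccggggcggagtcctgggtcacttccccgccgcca
Slc38a2: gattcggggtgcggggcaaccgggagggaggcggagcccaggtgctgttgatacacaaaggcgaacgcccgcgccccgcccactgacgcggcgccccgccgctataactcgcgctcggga
They lie on the minus strand of GRCm38.p6 at chr5:148399895-148400014, chr3:98339960-98340079, chr19:15925050-15925169, chr5:129787244-129787363, chr19:8713888-8714007 and chr15:96699719-96699838, in that order. Counted from the first transcribed base as 0, the boxes start at -3 in Slc7a1, at -193 and -23 in Phgdh, at -36, -6 and 23 in Psat1 and at -78 and -48 in Psph, so those of Phgdh at -193 and Psat1 at 23 are outside the stretches printed.

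The leucine exchanger rose in both subunits and at both steps. Slc7a5 (ENSMUSG00000040010; mm9, chr8:124405052-124431594, minus strand) had 43.2 and 56.9 CPM in wild type, 194 and 215 in premalignant and 380 and 313 in malignant cells. Its 3 stages did not overlap. It was 4.09-fold higher in premalignant than wild type cells (log2 fold change 2.03, SE 0.19, adjusted p = 0.00217) and 1.69-fold higher in malignant than premalignant cells (0.76, SE 0.18, adjusted p = 0.0966), which made 6.93-fold from wild type to malignant (2.79, SE 0.20, adjusted p = 0.000628). Within replicate number 1 and within number 2, which differ in sequencing depth, the second step was 0.97 and 0.55 on the log2 scale. The call of the second step was lost under upper-quartile and total-count scaling (adjusted p = 0.128 and 0.121).

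Its partner Slc3a2 (ENSMUSG00000010095; chr19:8781372-8797859, minus strand) was at 55.0 and 61.6 CPM in wild type, 102 and 107 in premalignant and 178 and 159 in malignant cells. Its stages were separate too, with smaller steps than those of Slc7a5. The first step was 1.80-fold (log2 fold change 0.85, SE 0.14, adjusted p = 0.00762) and the second 1.61-fold (0.68, SE 0.14, adjusted p = 0.0622), together 2.89-fold (1.53, SE 0.14, adjusted p = 0.000925). The adjusted p of the second step was 0.0966 for Slc7a5 and 0.0622 for Slc3a2 with all libraries, and 0.128 and 0.112 when only the premalignant and malignant libraries were fitted. Both calls were lost when a premalignant library was left out, as were those over all genes. With any 1 library left out the log2 fold change was 0.62 to 0.86 for Slc7a5 and 0.60 to 0.73 for Slc3a2.

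Per kilobase of exon (RPKM, from TMM-scaled CPM), the light chain was the scarcer transcript in wild type cells and the more abundant one in both Myc stages. The ratio of Slc7a5 to Slc3a2 RPKM was 0.660 and 0.777 in wild type, 1.60 and 1.68 in premalignant and 1.79 and 1.66 in malignant cells. Wild type was apart from both Myc stages, whose ranges overlapped, and with 2 libraries against 2 the smallest exact two-sided permutation p is 0.333. Slc3a2 also pairs with other light chains, so the ratio is not one of subunits of a single complex. Among these, Slc7a6 (y+LAT2), named after its values were seen, was at 43.7 and 46.1 CPM in wild type, 100 and 103 in premalignant and 121 and 103 in malignant cells.

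Slc7a1 (CAT1; ENSMUSG00000041313; chr5:149138986-149211480, minus strand), the main carrier of arginine and lysine in many cells, completed most of its rise before malignancy. It was at 51.7 and 47.6 CPM in wild type, 209 and 226 in premalignant and 287 and 247 in malignant cells. The wild type values were far below the others, and both malignant values were slightly above both premalignant ones. The step from wild type to premalignant was 4.37-fold (log2 fold change 2.13, SE 0.15, adjusted p = 0.00147), and the step to malignant cells 1.23-fold and not called (0.30, SE 0.14, adjusted p = 0.306). In log2 units 87.7% of the whole change from wild type to malignant was present in premalignant cells, beside 72.7% for Slc7a5 and 55.3% for Slc3a2. These shares are descriptions, and their differences were not tested.

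The 3 glutamine carriers did not share this rise. None of them was called by edgeR between wild type and premalignant or between premalignant and malignant cells (0 of 3 each, also 0 at an unadjusted p under 0.05 and 0 by DESeq2). Slc1a5 (ASCT2; ENSMUSG00000001918; chr7:17366695-17383623, plus strand), an exchanger of glutamine and other neutral amino acids, was at 850 and 1136 CPM in wild type, 943 and 872 in premalignant and 681 and 665 in malignant cells. Premalignant values lay inside the wild type range, and both malignant values lay below all others. It was 1.48-fold lower in malignant than wild type cells (log2 fold change -0.56, SE 0.18, adjusted p = 0.0464), and -0.43 (SE 0.18, adjusted p = 0.256) from premalignant to malignant cells. The call against wild type was lost without wild type replicate 2, the library with the highest value (-0.34, adjusted p = 0.221), without premalignant replicate 1 or 2 (adjusted p = 0.121 and 0.127), and when only those 2 stages were fitted (adjusted p = 0.122).

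Slc38a1 (SNAT1; ENSMUSG00000023169) and Slc38a2 (SNAT2; ENSMUSG00000022462), sodium-coupled importers of glutamine and alanine, are neighbours on chromosome 15, at chr15:96401849-96473344 and chr15:96517825-96530129 (mm9) with 44480 bases between them. Slc38a1 was at 357 and 385 CPM in wild type, 328 and 363 in premalignant and 289 and 363 in malignant cells, and the stages overlapped in each comparison. Its log2 fold change from wild type to malignant was -0.19 (SE 0.16, adjusted p = 0.39). Slc38a2, which cells short of amino acids are known to induce, was at 374 and 338, 440 and 381, and 350 and 417 CPM in the same order. Its malignant values spanned most of the range of the other stages, and its log2 fold change from wild type to malignant was 0.11 (SE 0.16, adjusted p = 0.626), with the sign turning to -0.06 and -0.19 under upper-quartile and total-count scaling. The related gene Slc38a4, 295124 bases beyond Slc38a2, was at 0 to 0.609 CPM.

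The carriers made up a different mix at each stage (the stacked plot of 5 carriers). Summed RPKM of Slc1a5, Slc38a1, Slc38a2, Slc7a5 and Slc7a1 was 347 and 415 in wild type, 444 and 426 in premalignant and 420 and 415 in malignant cells, and the lower wild type library stood below the other 5. Slc1a5 made up 58.9% and 65.9% of this sum in wild type, 51.1% and 49.2% in premalignant and 39.0% and 38.5% in malignant libraries. Slc7a5 and Slc7a1 together made up 5.52% and 5.43%, 18.7% and 21.4%, and 34.8% and 29.3%. Both shares were apart at all 3 stages. Exon lengths come from the annotation, so RPKM compares transcripts only as far as the annotated ends are those used in these cells.

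**Figure D3:**
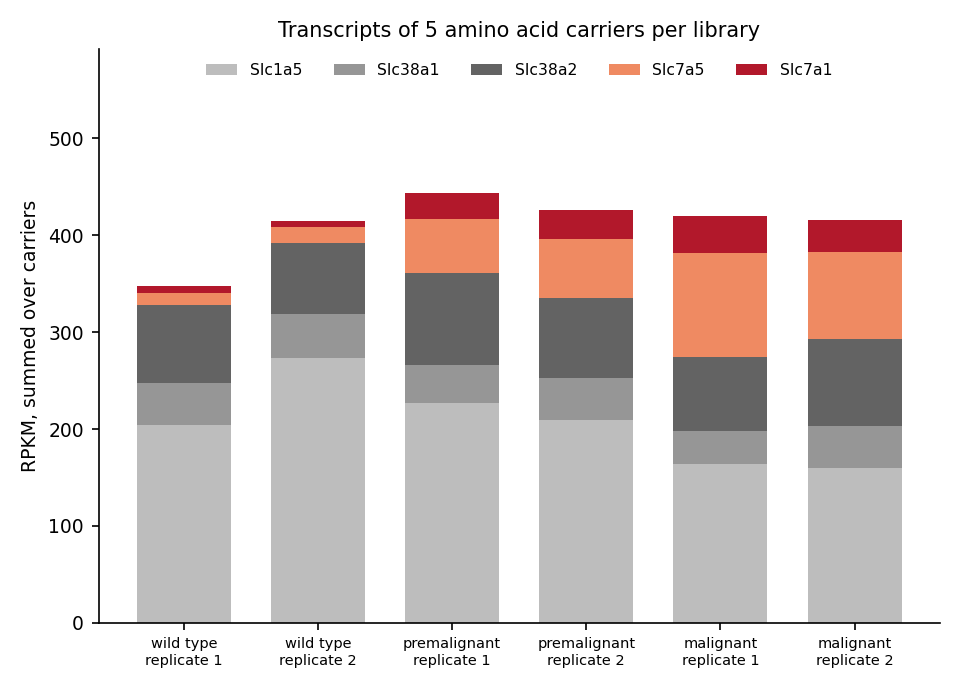
RPKM of 5 carriers stacked per library, with the 3 glutamine carriers in grey, Slc7a5 in orange and Slc7a1 in red. The whole column stands at 347 to 444 RPKM, and the orange and red parts grow from 5.43% and 5.52% of it in wild type to 29.3% and 34.8% in malignant cells.

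All 3 serine synthesis enzymes were higher in premalignant than wild type cells, and only Phgdh was called again at the step to malignancy. Phgdh (ENSMUSG00000053398; chr3:98117093-98143913, minus strand), the first and committed enzyme, was at 101 and 86.9 CPM in wild type, 287 and 288 in premalignant and 458 and 573 in malignant cells. The stages were separate, and the premalignant libraries nearly coincided. It rose 3.06-fold at the first step (log2 fold change 1.61, SE 0.17, adjusted p = 0.00264) and 1.79-fold at the second (0.84, SE 0.16, adjusted p = 0.0586), 5.49-fold in all (2.46, SE 0.17, adjusted p = 0.000628). The second step was 0.67 within replicate number 1 and 0.99 within number 2 on the log2 scale. Its adjusted p was 0.134 when only the 2 stages were fitted. Without a premalignant library its call was lost, as were those over all genes. With any 1 library left out its log2 fold change was 0.64 to 0.99.

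The Phgdh count is uncertain because much of its transcript recurs in the genome. Stretches of at least 95% identity outside the gene covered 96.6% of its 1893-base transcript in mm9, and which reads with several places were kept is not given in the sources used here. The closest copy, the pseudogene Gm7901 (chr8:78235361-78237188, 98.8% identical over 1828 bases), held 215 and 133 counts in wild type, 632 and 554 in premalignant and 929 and 814 in malignant cells. These were 3.74% to 5.79% of the Phgdh counts of the same libraries. The Gm7901 counts rose with Phgdh, by 1.93 (SE 0.30, adjusted p = 0.00673) from wild type to premalignant on the log2 scale. For Slc3a2 such copies covered 7.39% of the transcript, and for the other 7 genes none was found. The search kept only strong matches, so copies about as short as the 50-base reads could have been missed.

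Psat1 (ENSMUSG00000024640; chr19:15979168-16021827, minus strand), which makes phosphoserine with glutamate as the amino donor, was at 119 and 86.9 CPM in wild type, 236 and 236 in premalignant and 287 and 168 in malignant cells. The malignant libraries fell on either side of the premalignant ones, and all 4 Myc libraries were above wild type. It was 2.29-fold higher in premalignant than wild type cells (log2 fold change 1.20, SE 0.28, adjusted p = 0.0238) and 2.21-fold higher in malignant cells (1.14, SE 0.28, adjusted p = 0.0195), with -0.05 (SE 0.28, adjusted p = 0.953) between the Myc stages. The first call was lost without wild type replicate 2 (adjusted p = 0.147) and without premalignant replicate 1 or 2 (adjusted p = 0.118 and 0.124), and the second without wild type replicate 2 (adjusted p = 0.119).

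Psph, which removes the phosphate to give free serine (ENSMUSG00000029446; chr5:130271434-130293129, minus strand), was the least abundant of the 3, at 14.2 and 12.2 CPM in wild type, 24.2 and 26.1 in premalignant and 47.2 and 27.5 in malignant cells. Its stages did not overlap, although the lower malignant library was close to the premalignant ones. It was 1.90-fold higher in premalignant (log2 fold change 0.93, SE 0.28, adjusted p = 0.048) and 2.83-fold higher in malignant than wild type cells (1.50, SE 0.28, adjusted p = 0.0077). The first of these calls was lost in 4 of the 6 fits that left out 1 library, with adjusted p of 0.130 and 0.228 without wild type replicate 1 and 2 and 0.173 and 0.222 without premalignant replicate 1 and 2. The step to malignancy, 0.57 (SE 0.27, adjusted p = 0.314), was called only without malignant replicate 2 (0.88, adjusted p = 0.0173).

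Per length of all annotated exons, the summed level of the 3 serine enzymes passed that of the 3 glutamine carriers narrowly in 1 of the 2 malignant libraries. The orders given here hold for these lengths only. Annotated exons span 4156 bases in Slc1a5 and 4254 in Psat1, whereas their longest coding transcripts have 2752 and 2617. Phgdh, the largest part of the enzyme sum, has the uncertain count described above. The enzymes summed to 76.4 and 62.1 RPKM in wild type, 184 and 186 in premalignant and 278 and 285 in malignant cells. The carriers summed to 328 and 392, 361 and 335, and 274 and 293. In wild type cells the order of mean RPKM ran from Slc1a5 (239 ± 48.5, SD, n = 2) through Slc38a2 (77.0 ± 5.54), Slc38a1 (44.2 ± 2.39), Phgdh (37.8 ± 3.97), Psat1 (24.2 ± 5.32), Slc3a2 (19.7 ± 1.57), Slc7a5 (14.2 ± 2.76) and Psph (7.27 ± 0.789) to Slc7a1 (6.60 ± 0.383). The ranges of Psat1 and Slc3a2 overlapped there, as did those of Psph and Slc7a1. In premalignant cells the order began with Slc1a5 (218 ± 12.0), Phgdh (116 ± 0.296), Slc38a2 (88.7 ± 9.09) and Slc7a5 (58.2 ± 4.11), and Slc7a5 overlapped with the next gene, Psat1 (55.4 ± 0.0951). Slc38a1 (41.2 ± 2.92), Slc3a2 (35.4 ± 1.19), Slc7a1 (28.9 ± 1.59) and Psph (13.8 ± 0.742) followed without overlap. In malignant cells it began with Phgdh (207 ± 32.6), Slc1a5 (162 ± 2.63), Slc7a5 (98.6 ± 13.3) and Slc38a2 (82.9 ± 10.2), of which the last 2 overlapped, went on with Slc3a2 (56.9 ± 4.67), Psat1 (53.5 ± 19.9) and Slc38a1 (38.8 ± 6.19), each overlapping with the next, and ended with Slc7a1 (35.4 ± 3.81) and Psph (20.6 ± 7.66), where Slc38a1 and Slc7a1 overlapped as well.

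The genes around these 9 were read from 6 further lists with 82 genes, of which 73 were tested (the plot of related genes). In premalignant against wild type cells 38 were called, 25 higher and 13 lower, in malignant against wild type cells 41, 30 higher and 11 lower, and in malignant against premalignant cells 8, all higher. Over all genes tested the shares called higher and lower were 19% and 20.3%, 24.9% and 24.3%, and 3.73% and 2.45% in these comparisons, in the same order, so lower calls were no more frequent among the 73 than among all genes, and the counts of each list below stand against the same shares. The first count fell to 24 and 21 without premalignant replicate 1 and 2, and the last was 4 without either wild type library, 0 without either premalignant one and 14 and 21 without malignant replicate 1 and 2. Calls over all genes moved the same way in these fits. Higher calls were most frequent among the enzymes that use serine and those of glutamine, proline and arginine, and the lysosomal carriers were called lower only.

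**Figure D4:**
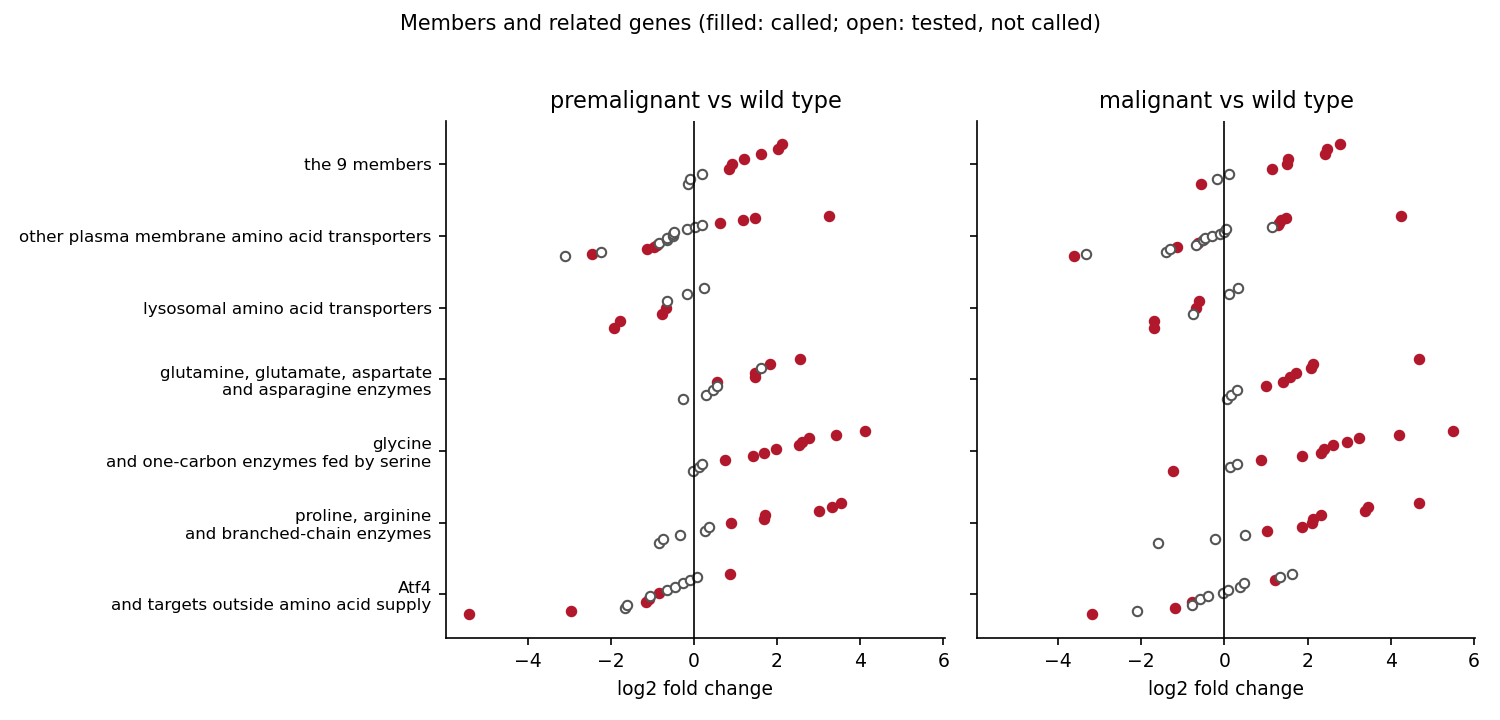
Log2 fold change against wild type of each tested gene of the 9 and of 6 further lists in premalignant (left) and malignant cells (right), with filled points for called genes and a small vertical offset within a list. The lysosomal transporters called lie below 0, and the one-carbon enzymes called in premalignant cells lie above it.

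Of 12 tested enzymes for glycine and one-carbon units, fed by serine, 9 were called higher in premalignant cells and 0 lower, with a median log2 fold change of 1.83, and in malignant against wild type cells 9 were called higher and 1 lower. Shmt2, the mitochondrial enzyme that takes a carbon from serine, was at 64.5 and 71.9 CPM in wild type, 415 and 418 in premalignant and 632 and 654 in malignant cells. It was 6.11-fold higher at the first step (log2 fold change 2.61, SE 0.14, adjusted p = 0.00141) and rose again at the second (0.63, SE 0.13, adjusted p = 0.0685). Mthfd2, which handles that carbon in mitochondria, was at 49.7 and 32.5, 117 and 104, and 119 and 181 CPM (1.42 at the first step, SE 0.28, adjusted p = 0.0136), and its cytosolic relative Mthfd1 at 48.7 and 40.7, 251 and 264, and 256 and 431 CPM (2.53, SE 0.27, adjusted p = 0.00276). Wild type stood apart from both Myc stages for each of the 3. Cth, which makes cysteine from serine-derived cystathionine, was at 0.789 and 0.510 CPM in wild type, 5.70 and 8.35 in premalignant and 11.2 and 13.2 in malignant cells. From this low wild type level it was 10.7-fold higher in premalignant cells (3.41, SE 0.38, adjusted p = 0.00298). In malignant against premalignant cells 2 of the 12 were called, Shmt2 and Mthfd1l, the second named after its values were seen. Both calls were lost without either wild type or either premalignant library and when only these 2 stages were fitted. Calls over all genes fell or were lost in the same fits.

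Of 10 enzymes of glutamine, glutamate, aspartate and asparagine, 5 were called higher in premalignant and 7 in malignant than wild type cells, and none lower. Asns, which moves the amide of glutamine onto aspartate to make asparagine, was at 1.72 and 4.79 CPM in wild type, 16.4 and 21.4 in premalignant and 86.2 and 77.4 in malignant cells. Each step separated the libraries, 5.90-fold at the first (log2 fold change 2.56, SE 0.46, adjusted p = 0.0107) and 4.33-fold at the second (2.11, SE 0.44, adjusted p = 0.0683). Among 13 alternative fits at the same limits the second call was lost only without premalignant replicate 1 or 2. In those fits the calls over all genes were lost as well, so the loss is not particular to Asns. Glul, which makes glutamine, was at 174 and 157, 133 and 144, and 218 and 126 CPM and was called in no comparison. The transaminases Got1 and Gpt2 were 3.57-fold and 2.76-fold higher in premalignant than wild type cells (adjusted p = 0.00179 and 0.0214). The Got1 call was kept in all 13 alternative fits. The Gpt2 call was lost without wild type replicate 2 and without premalignant replicate 1 or 2, with log2 fold changes of 1.26 to 1.68 over the 13 fits.

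Of 11 enzymes of proline, arginine and branched-chain amino acids, 6 were called higher in premalignant and 8 in malignant than wild type cells, and none lower. Ass1, which joins citrulline and aspartate on the way to arginine, was at 19.9 and 19.2 CPM in wild type, 216 and 237 in premalignant and 525 and 479 in malignant cells. Its stages were far apart, with 11.6-fold at the first step (log2 fold change 3.54, SE 0.14, adjusted p = 0.00104) and 2.21-fold at the second (1.15, SE 0.13, adjusted p = 0.0205). Pycr1, which completes proline synthesis, was 9.97-fold higher in premalignant than wild type cells (3.32, SE 0.32, adjusted p = 0.00221). Bcat1, the cytosolic branched-chain transaminase, was at 21.6 and 21.9, 163 and 188, and 158 and 315 CPM, so its malignant libraries were 1 below and 1 above the premalignant pair.

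Among 19 tested carriers of the plasma membrane outside the 9, 4 were called higher and 4 lower in premalignant cells, and 5 higher and 3 lower in malignant than wild type cells. For the premalignant cells these shares were near the 19% and 20.3% of all genes, so the counts are no result about the carriers as a group. Slc1a4 (ASCT1), an exchanger of alanine, serine and cysteine, was at 1.61 and 1.30 CPM in wild type, 13.9 and 14.1 in premalignant and 36.5 and 19.4 in malignant cells. It was 9.55-fold higher in premalignant than wild type cells (log2 fold change 3.26, SE 0.36, adjusted p = 0.00296), in contrast to its close relative Slc1a5, which was called there in neither direction. A further 1.00 (SE 0.33, adjusted p = 0.175) to malignant cells was not called. Slc7a7, a light chain of Slc3a2 for cationic amino acids, was at 8.68 and 11.6, 5.89 and 7.08, and 21.3 and 28.4 CPM, and was called higher at the second step (1.94, SE 0.27, adjusted p = 0.0289). That call was lost without premalignant replicate 1 or 2, as were those over all genes. The taurine carrier Slc6a6 was at 76.9 and 100, 122 and 152, and 234 and 262 CPM.

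The cystine carrier subunit Slc7a11 was low throughout, at 2.38 and 3.74 CPM in wild type, 1.54 and 1.60 in premalignant and 1.95 and 1.86 in malignant cells, with a call in premalignant cells (log2 fold change -0.96, SE 0.37, adjusted p = 0.0956) that was lost in 6 of 13 alternative fits. Slc43a1, a further leucine carrier, was at 25.0 to 38.0 CPM in all libraries and was called in no comparison. Of 7 carriers of the lysosome, 4 were called lower in premalignant and 4 in malignant than wild type cells. Without wild type replicate 2, Slc36a1 and Slc15a4, the second named after its values were seen, were called lower at neither Myc stage. Their log2 fold changes against wild type stayed below 0 in all 13 alternative fits. Slc38a9, the arginine sensor of the lysosomal membrane, was at 76.6 and 118 CPM in wild type, 26.0 and 25.7 in premalignant and 39.1 and 20.6 in malignant cells (-1.91, SE 0.35, adjusted p = 0.0111 at the first step). Pqlc2, which exports cationic amino acids from the lysosome, was at 9.85 and 12.6, 3.58 and 2.95, and 4.14 and 2.76 CPM, and Slc36a1 at 29.1 and 33.6, 19.9 and 17.2, and 23.2 and 17.6 CPM. Wild type was higher than both Myc stages for all 3. The summed B-lineage genes and the sums for each of the other cell types above were higher there too, and a link to these carriers was not tested.

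ATF4 is the transcription factor through which amino acid shortage is known to raise Asns, Slc7a11, Slc3a2 and the serine enzymes. Atf4 was at 195 and 246 CPM in wild type, 233 and 230 in premalignant and 251 and 316 in malignant cells, and was called in no comparison (log2 fold change 0.36, SE 0.18, adjusted p = 0.147 from wild type to malignant). Only transcripts were counted here, and the amount and activity of ATF4 protein were not tested. Of 14 tested genes in the list of Atf4 and its targets outside amino acid supply, 1 was called higher and 5 lower in premalignant cells, and 1 higher and 3 lower in malignant than wild type cells. Eif4ebp1, a brake on cap-dependent translation, was the gene called higher, at 23.9 and 26.0, 43.9 and 47.2, and 53.0 and 63.5 CPM. Ddit3 (CHOP) was at 14.9 and 25.2, 9.64 and 8.31, and 7.07 and 10.6 CPM, and the stress phosphatase subunit Ppp1r15a at 18.2 and 188, 9.60 and 17.2, and 11.1 and 11.5. The wild type libraries thus differed strongly from each other for Ppp1r15a. Without wild type replicate 2 the lower calls of this list, not only those of Ddit3 and Ppp1r15a, were lost at both Myc stages. The log2 fold changes behind these calls stayed below 0 in every alternative fit.

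The element TGATGNAA, absent from the 8 windows at hand for 6 of the 9 genes, was present at Asns and Slc1a4. They are shown for that reason from 50 bases before to 9 bases after the start, with the element or its reverse complement in capitals.
Asns: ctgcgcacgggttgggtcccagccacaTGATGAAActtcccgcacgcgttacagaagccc
Slc1a4: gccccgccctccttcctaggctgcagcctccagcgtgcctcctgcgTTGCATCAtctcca
Both lie on the minus strand of GRCm38.p6, at chr6:7693200-7693259 and chr11:20332704-20332763, with the element starting at -23 and -4 from the first transcribed base.

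The genes whose pattern over the 6 libraries was most like that of each of the 9 were sought among 9989 genes with a mean of at least 5 CPM, by the root mean square difference of log2(CPM + 0.5) after each gene was centred on its own mean. For Slc7a1 these were Dkc1 (0.0409), Wdr43 (0.0517) and Pop1 (0.0524), and for Slc3a2 N6amt1 (0.0496), Nudt6 (0.0535) and Rbfa (0.0587). Slc7a5 had no pattern as close, with Ltbp4 (0.132), Aprt (0.146) and 3110082I17Rik (0.149) first and the nearest of the other 8 genes, Slc7a1, at rank 47 (0.249). For Phgdh they were Steap3 (0.0953), Mthfd1l (0.0968) and Suclg2 (0.104), for Psat1 Mcm3 (0.0854), BC055324 (0.104) and Rpl39 (0.114), and for Psph Ahctf1 (0.0604), Tpst1 (0.0663) and Rpl37a (0.0715). For the glutamine carriers they were Myo9b (0.0781), Suv420h2 (0.0793) and Bptf (0.083) beside Slc1a5, Phlpp2 (0.0438), Ppp1r16a (0.044) and Rptor (0.0461) beside Slc38a1, and Phf23 (0.0459), Srprb (0.0481) and Ctdnep1 (0.0492) beside Slc38a2. Genes with little change lie close to many others by this measure, so the differences of the flat and the rising genes are not on one footing.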

How the data were processed

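PolyA RNA of sorted pre-B cells was sequenced from 2 wild type, 2 premalignant and 2 malignant animals. The deposited files hold raw counts per Ensembl gene, which the authors made from 50-base single-end reads of an unstranded TruSeq library with TopHat (the submitters' processing notes name Bowtie and CASAVA 1.8.2) on mm9 and HTSeq, whose options and annotation release are not given in the sources used here. The authors' tables of their own comparisons, with means, fold changes and p-values, were not used. Symbols and coordinates came from GENCODE vM1 (37205 of 37991 IDs had a symbol, and of the 2 IDs named Slc38a9 the one with more counts was taken). All 6 libraries were fitted by stage with edgeR 4.0.16 (R 4.3.3): TMM scaling, filterByExpr, quasi-likelihood test and Benjamini-Hochberg adjustment over all 16683 genes tested, with the study's limits for calls (adjusted p at most 0.1, log2 fold change at least 0.5 in size). With 30031100 to 53453055 counts per library, precision was limited by the 2 animals per stage. Alternatives were DESeq2 1.42.0, other scalings and filters, a replicate block, only the stages compared, a stricter adjusted p of 0.05, and leaving out each library. In each further list, the 3 called genes with the largest change were named, provided their higher stage averaged 5 CPM or more, and always Glul, Asns, Shmt2, Mthfd2, Slc7a11, Slc1a4, Slc43a1 and Atf4, and 1 further gene of that rule is not reported here. The members and lists were chosen with earlier results of these data known. Genomic copies of the 9 transcripts were sought with BLAST 2.17.0. Promoter sequences are RefSeq's (GRCm38.p6). The fit was tested on simulated data.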

Additional observations from a re-analysis of the deposited data

How the results depend on the processing

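For single genes, 335 of the results under an alternative kept their direction and their side of the limits, 33 were no longer called, 1 became called and 9 changed sign. The sign changes were in genes that were not called: Slc1a5 between wild type and premalignant (0.096 without wild type replicate 2, and -0.32 to 0.096 with any 1 library left out), Slc38a2 there (-0.0040 by total counts), Slc38a1 between premalignant and malignant (0.068 without malignant replicate 1, range -0.29 to 0.068), Slc38a2 there (0.0097 without premalignant replicate 1 and 0.022 without malignant replicate 1, range -0.26 to 0.022), Psat1 there (0.25 without malignant replicate 2, range -0.49 to 0.25), and Slc38a2 between wild type and malignant (-0.060 by upper quartile, -0.19 by total counts and -0.00019 without malignant replicate 2, range -0.00019 to 0.24). Between premalignant and malignant cells, calls among the 9 genes fell from 3 to 0 when only these stages were fitted and at an adjusted p of 0.05, and ran from 0 to 4 with 1 library left out. Calls among related genes there, 8 in the fit reported, were 13 by DESeq2, 19 with no filter, 4 with only these stages, 3 at 0.05 and 0 to 21 with 1 library left out. Calls over all genes there, 1031 in the fit reported, were 2113, 2810, 258, 407 and 0 to 3805 in the same order. In premalignant against wild type cells, calls with 1 library left out ran from 21 to 47 among related genes and, over all genes, from 2094 (without premalignant replicate 2) to 8455, with 2503 without premalignant replicate 1 and 3285 without wild type replicate 2, beside 6563. The cause was not tested. When a stage keeps 1 library, that library is assumed to vary like the other stages.

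The stages share replicate numbers, and the labels name no batch behind them. Differences between replicates 1 and 2 correlated across 16683 genes at 0.51 between wild type and premalignant, 0.19 between wild type and malignant and 0.26 between premalignant and malignant cells. With the replicate number as a block, 6, 2 and 7 of the 9 genes were called in the 3 comparisons (41, 7 and 45 related genes, 6575, 940 and 8224 in all), and among the 9 genes only the call of Slc7a5 between premalignant and malignant cells was lost (0.77, adjusted p = 0.120). Among the related genes the block ended the calls of Shmt2 and Mthfd1l between premalignant and malignant cells and of Slc7a11 and Sesn2 between wild type and premalignant cells, the names Mthfd1l and Sesn2 being chosen after their values were seen.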
